A study of Mus musculus with 4 samples.

Results

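The genes described here serve the presentation of antigen on MHC class II molecules, and were followed in injured spinal cord of mice that carry human ApoE3 or ApoE4. The group was set by name and holds 7 genes, H2-AA, H2-AB1, H2-EB1, H2-DMA, H2-DMB1, CD74 and CIITA, with symbols in capitals as in the table of values. Of these 7, 5 had a row at both time points, among 14123 genes listed at 7 days post injury (dpi) and 11470 at 21 dpi. H2-DMA and CIITA had no row in the table used.

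The study asked how the ApoE variant affects recovery after spinal cord injury (SCI). Targeted replacement (TR) mice carry the coding region of a human ApoE isoform, ApoE3 or ApoE4, in place of the mouse gene. The 4 groups were male ApoE3 TR mice at 7 dpi, male ApoE4 TR mice at 7 dpi, and both genotypes at 21 dpi, aged 3 to 5 months at surgery by the study's methods. Every group had a 50 kdyne contusion at the thoracic level, and RNA came from the cord segment with the lesion. No uninjured or sham-operated cord was analysed here, so no value says how far a gene stood from its level without injury.

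Each group had 1 value per gene, although the study's methods give 3 mice per group. The spread between mice is therefore unknown, no difference below was tested, and the number of reads behind a value is unknown as well. Levels are FPKM, the number of fragments scaled to transcript length and library size, so levels of different genes can be set side by side. Ratios are log2((FPKM ApoE3 + 1)/(FPKM ApoE4 + 1)), positive when ApoE3 was higher, and fold changes are on the same scale, which understates differences of genes with low values. A gene was counted as different when it was at least 1.3-fold apart.

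The genotype of the value columns can be read in more than one way. The name of each comparison puts ApoE3 first, the order in which the study itself reads the values, and this order was used. The numbering of the sample columns would put ApoE4 first, and under that reading every direction between genotypes given here would be the opposite. A change of direction between 7 and 21 dpi would be present under either reading.

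MHC class II molecules are pairs of an alpha and a beta chain that display peptides from endosomes to CD4+ T cells. The invariant chain, encoded by CD74, holds the new pair and blocks its groove until it is degraded in endosomes, and H2-DM then helps to exchange the remaining fragment for peptide. CIITA switches the genes on together and responds to interferon gamma. In the cord, resting microglia carry little class II, while activated microglia and the macrophages, dendritic cells and B cells that enter after injury carry more.

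H2-AA encodes the alpha chain of the I-A molecule. At 7 dpi its level was 36.8 FPKM in ApoE3 mice and 45.4 in ApoE4 mice, and at 21 dpi 18.9 in ApoE3 and 12.3 in ApoE4. ApoE4 was the higher group at 7 dpi and the lowest of all 4 groups at 21 dpi. The log2 ratio was -0.30 at 7 dpi, short of 1.3-fold, and 0.58 at 21 dpi, which was 1.49-fold higher in ApoE3.

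H2-AB1 encodes the beta chain that pairs with it. It had 30.7 FPKM in ApoE3 against 41.2 in ApoE4 at 7 dpi, and 18.0 in ApoE3 and 13.3 in ApoE4 at 21 dpi. The order of the 4 groups was the same as for H2-AA. The log2 ratio was -0.41 at 7 dpi, or 1.33-fold higher in ApoE4, and 0.41 at 21 dpi, or 1.33-fold higher in ApoE3.

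H2-EB1 encodes the beta chain of the I-E molecule, and it had the widest gap between genotypes of the 5 listed members at both time points. It had 22.9 FPKM in ApoE3 against 32.6 in ApoE4 at 7 dpi, and 13.0 in ApoE3 and 7.35 in ApoE4 at 21 dpi. The log2 ratio went from -0.49, or 1.41-fold higher in ApoE4, to 0.74, or 1.67-fold higher in ApoE3. H2-EA, its alpha partner, had no row in the table used.

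CD74, the invariant chain, was the most abundant member in every group. It had 72.3 FPKM in ApoE3 against 95.9 in ApoE4 at 7 dpi, and 47.2 in ApoE3 and 35.8 in ApoE4 at 21 dpi. Its order of groups was again that of H2-AA. The log2 ratio was -0.40 at 7 dpi, or 1.32-fold higher in ApoE4, and 0.39 at 21 dpi, or 1.31-fold higher in ApoE3, just past the 1.3-fold limit in both cases.

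H2-DMB1, a beta chain of the H2-DM exchange factor, was the least abundant listed member and did not share the change of direction. It had 7.46 FPKM in ApoE3 against 8.64 in ApoE4 at 7 dpi, and 4.94 in ApoE3 and 5.65 in ApoE4 at 21 dpi. The log2 ratio was -0.19 and then -0.16, with neither past 1.3-fold. Relative to the median of all genes it was 0.26 at 21 dpi, so the direction at that time depends on the scaling.

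**Figure D1:**
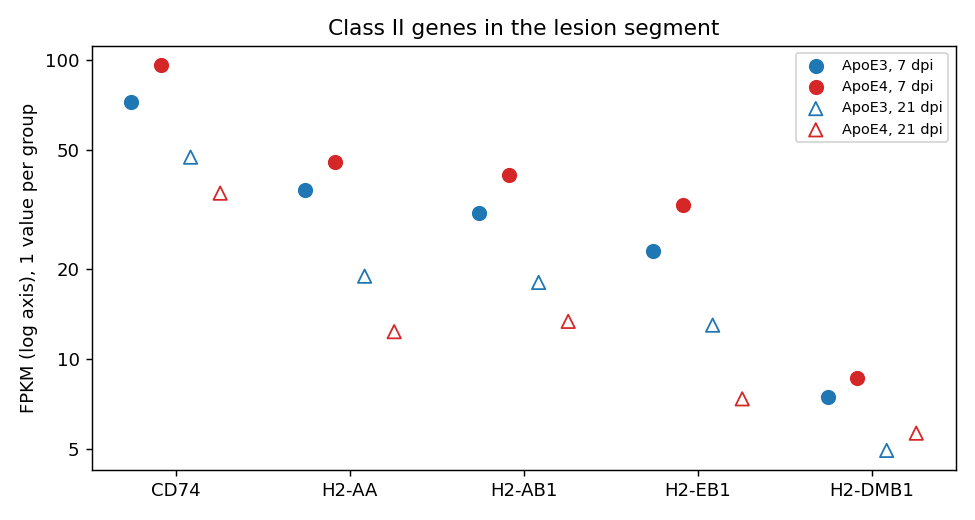
FPKM of the 5 listed class II genes on a log axis, 1 point per group, with filled circles for 7 dpi, open triangles for 21 dpi, blue for ApoE3 and red for ApoE4. For 4 genes ApoE4 is the highest group at 7 dpi and the lowest at 21 dpi, as for CD74 with 95.9 and 35.8 FPKM, while H2-DMB1 is higher in ApoE4 at both times in the values as deposited, a direction that scaling turns at 21 dpi.

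The class II genes share a promoter module known as the X and Y boxes, bound by RFX and NF-Y factors, on which CIITA is recruited. The members that moved together and others that did not are therefore shown with these letters. Promoters were taken from RefSeq, build GRCm38.p6, 250 bases before to 50 after each start. They were searched on both strands for the Y box letters TGATTGG and for GNAAC, which lies in the X box, with TGATTGG beginning 20 to 50 bases after it. These letters were chosen with the promoters in view. Of 13 symbols of members and other class II chains, 8 had an entry, with 9 promoters. H2-AB1, CD74 and CIITA had none. The pair of motifs was in 6 of the 9, from 6 genes, against 0.852% of 32851 promoters of the same length, and TGATTGG alone was in 7.82% of all promoters. Capitals mark GNAAC and TGATTGG, which do not overlap. On chromosome 17 the stretches are chr17:34287847-34287924 on the minus strand for H2-Aa, chr17:34305756-34305832 on the plus strand for H2-Eb1, chr17:34153077-34153154 on the plus strand for H2-DMb1 and chr17:34238798-34238872 on the plus strand for H2-Ob.
H2-Aa: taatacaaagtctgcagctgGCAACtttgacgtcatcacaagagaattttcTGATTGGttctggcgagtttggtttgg
H2-Eb1: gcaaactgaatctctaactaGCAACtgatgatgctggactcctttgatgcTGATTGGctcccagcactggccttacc
H2-DMb1: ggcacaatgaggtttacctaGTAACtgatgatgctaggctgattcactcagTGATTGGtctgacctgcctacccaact
H2-Ob: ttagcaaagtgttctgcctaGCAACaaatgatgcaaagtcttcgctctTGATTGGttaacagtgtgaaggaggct
From the first base of GNAAC to that of TGATTGG there were 31 bases in H2-Aa, 30 in H2-Eb1, 31 in H2-DMb1 and 28 in H2-Ob. In the values as deposited, H2-AA and H2-EB1 were higher in ApoE3 at 21 dpi, and H2-DMB1 and H2-OB were not. All held both motifs, with GTAAC in H2-DMb1 and GCAAC in the other 3. H2-OA and H2-DMB2 were not higher in ApoE3 either. The H2-OA promoter held the pair, and that of H2-DMB2 held TGATTGG but not the pair. Neither H2-DMA promoter held TGATTGG. A match is a description of the sequence, and binding was not measured.

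At 7 dpi all 5 listed members were lower in ApoE3, and 3 of the 5, H2-AB1, H2-EB1 and CD74, were at least 1.3-fold higher in ApoE4. Over all 14123 genes, 4.76% were at least 1.3-fold higher in ApoE4 and 3.78% at least 1.3-fold higher in ApoE3. The median log2 ratio of the 5 members was -0.40, beside 0.0018 for genes averaging at least 1 FPKM, called the median of all genes from here on. Lower ratios than that of H2-EB1 were found for 352 of the 14123 genes, and lower ratios than that of H2-AA for 1121. In bulk tissue, fewer cells that carry class II and less class II RNA in each cell cannot be told apart.

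At 21 dpi the whole table was shifted towards ApoE4. The median of all genes was -0.42, 58.9% of 11470 genes were at least 1.3-fold higher in ApoE4, and 2.01% were at least 1.3-fold higher in ApoE3. Against that shift, 4 of the 5 listed members were at least 1.3-fold higher in ApoE3, namely H2-AA, H2-AB1, H2-EB1 and CD74. The median of the 5 members was 0.41. Higher ratios than that of H2-EB1 were found for 118 of the 11470 genes, than that of H2-AA for 155, than that of H2-AB1 for 212 and than that of CD74 for 225. For H2-DMB1, 1487 genes had a higher ratio.

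With that median subtracted, the ratios at 21 dpi were 1.16 for H2-EB1, 1.0 for H2-AA, 0.83 for H2-AB1, 0.81 for CD74 and 0.26 for H2-DMB1. The same 4 members were then at least 1.3-fold higher in ApoE3, beside 7.46% of all genes. Subtraction thus widened the gap of these 4 members and did not create it.

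**Figure D2:**
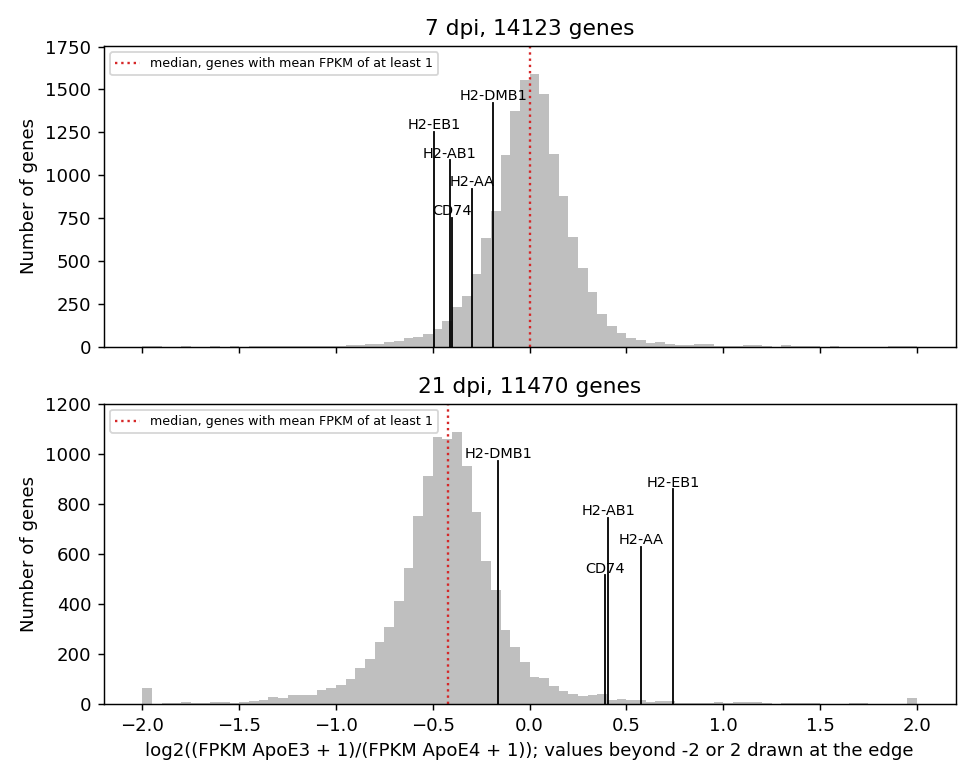
Number of genes by log2 ratio of ApoE3 to ApoE4 at 7 dpi (top, 14123 genes) and 21 dpi (bottom, 11470 genes), with the 5 listed class II genes as black lines and the median of genes as a dotted line. The members lie left of the centre at 7 dpi, while at 21 dpi H2-AA, H2-AB1, H2-EB1 and CD74 lie far to the right of a distribution centred on -0.42.

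The change of direction was then followed gene by gene. Among 10876 genes listed at both time points, 28 were at least 1.3-fold higher in ApoE4 at 7 dpi and at least 1.3-fold higher in ApoE3 at 21 dpi, which is 0.257%. Of these 28 genes, 3 were class II members, H2-AB1, H2-EB1 and CD74. H2-AA was short of the limit at 7 dpi. The other 25 genes included EGR2 of the Schwann cell list described below. They also included CHIL3, CCL11, LUM and MFAP5, which are in none of the lists used here. CHIL3 had log2 ratios of -0.89 at 7 dpi and 0.57 at 21 dpi, the latter from 1.14 FPKM in ApoE3 and 0.443 in ApoE4.

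**Figure D3:**
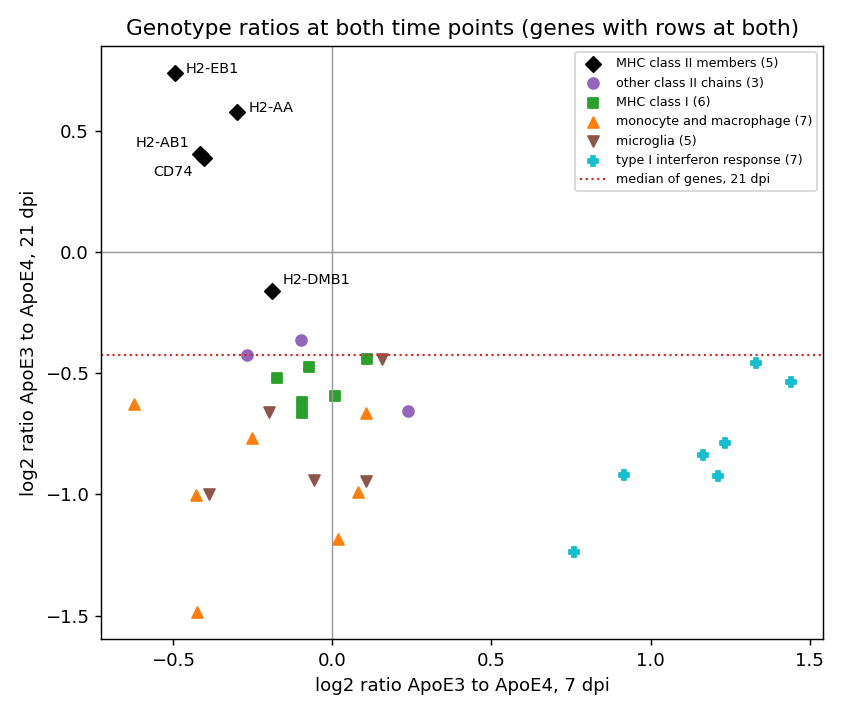
Log2 ratio of ApoE3 to ApoE4 at 7 dpi (horizontal) and 21 dpi (vertical) for the genes of 6 lists with rows at both times, 1 point per gene. H2-AA, H2-AB1, H2-EB1 and CD74 occupy the upper left alone among these lists, while macrophage, microglia, MHC class I and interferon genes lie near or below the dotted median of -0.42. Outside these lists, EGR2 and NGFR of the Schwann cell list also went from a negative ratio at 7 dpi to a positive one at 21 dpi.

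Between the time points all 5 listed members were lower at 21 dpi than at 7 dpi in both genotypes. The time points are separate comparisons in the table and were normalized apart, so these levels are only set side by side. In ApoE3 the log2 ratio of 21 to 7 dpi was -0.93 for H2-AA, -0.74 for H2-AB1, -0.78 for H2-EB1, -0.60 for CD74 and -0.51 for H2-DMB1. All 5 were at least 1.3-fold lower at 21 dpi, as were 23.6% of the genes listed at both times, whose median was 0.089.

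In ApoE4 the same ratio was -1.80 for H2-AA, -1.56 for H2-AB1, -2.01 for H2-EB1, -1.40 for CD74 and -0.54 for H2-DMB1. All 5 were again at least 1.3-fold lower at 21 dpi, beside 10.9% of all genes, whose median was 0.53. H2-EB1 was thus 4.03-fold lower at 21 dpi in ApoE4 and 1.71-fold lower in ApoE3, while H2-DMB1 was 1.45-fold and 1.42-fold lower. These ratios use the same 4 values as the comparison of genotypes and add no independent evidence to it.

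**Figure D4:**
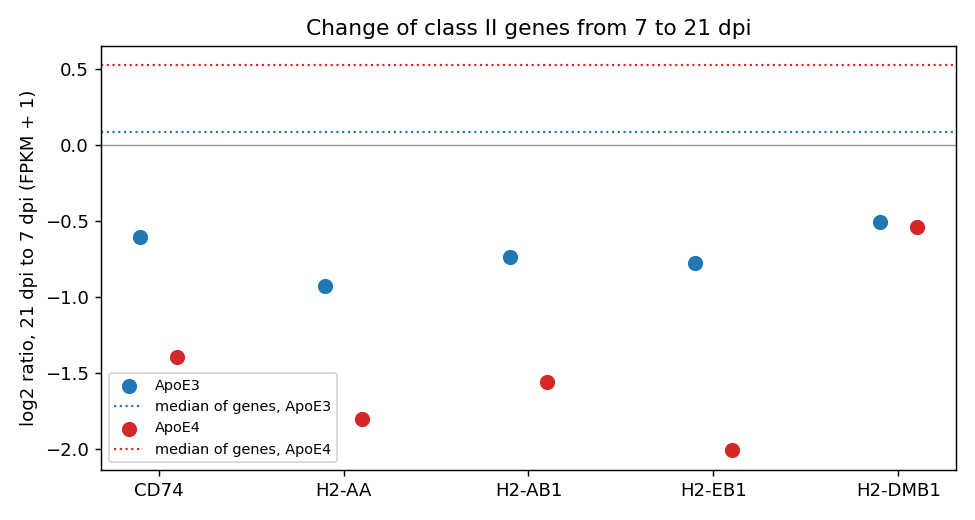
Log2 ratio of 21 dpi to 7 dpi for the 5 listed class II genes, blue for ApoE3 and red for ApoE4, with dotted lines at the median of all genes in each genotype. All points lie below 0, and the red points lie below the blue ones by a wide margin for every gene but H2-DMB1, at -0.51 in ApoE3 and -0.54 in ApoE4.

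The members were next compared with each other, as ratios of their FPKM within a group. CD74 was 1.96 times as abundant as H2-AA in ApoE3 and 2.11 times in ApoE4 at 7 dpi, and 2.5 and 2.90 times at 21 dpi. The invariant chain thus exceeded the alpha chain in all 4 groups. The ratio of H2-AB1 to H2-AA, the chains of I-A, was 0.835 and 0.908 at 7 dpi, and 0.953 and 1.08 at 21 dpi. The alpha chain was ahead in 3 groups, and the beta chain was ahead in ApoE4 at 21 dpi.

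H2-EB1 to H2-AB1, the beta chains of both molecules, stood at 0.746 and 0.792 at 7 dpi, and at 0.720 and 0.551 at 21 dpi, the last being ApoE4. H2-DMB1 to H2-AA was 0.203 in ApoE3 and 0.190 in ApoE4 at 7 dpi, and 0.262 and 0.458 at 21 dpi. The exchange factor was highest against the alpha chain in ApoE4 at 21 dpi, the group in which H2-AA was lowest.

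Of 6 symbols for other class II chains, H2-OA, H2-OB and H2-DMB2 were listed. H2-OA and H2-OB form H2-DO, which restrains H2-DM, and H2-DMB2 is another DM beta chain. H2-DMB2, the most abundant, had 5.33 FPKM in ApoE3 against 6.62 in ApoE4 at 7 dpi, and 3.89 and 5.55 at 21 dpi. Its log2 ratio was -0.27 and then -0.42, with no change of direction. H2-OA had 1.40 and 1.04 FPKM at 7 dpi, and 1.55 and 3.02 at 21 dpi. At 21 dpi all 3 were lower in ApoE3, and relative to all genes they were at 0.00058 for H2-DMB2, 0.062 for H2-OB and -0.23 for H2-OA. None of the 3 was among the genes higher in ApoE3.

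The class II genes sit side by side in the genome. Between H2-OA and H2-EB2, both included, RefSeq has 14 protein-coding genes in a row, of which 9 are not members. Of these 9, 7 were listed at 7 dpi and 5 at 21 dpi, and all 5 were lower in ApoE3 at 21 dpi, 4 of them at least 1.3-fold, beside 93.8% and 58.9% of all genes. TAP2, a peptide transporter of the class I pathway, had 12.6 FPKM in ApoE3 against 18.0 in ApoE4 at 21 dpi. PSMB8, an immunoproteasome subunit, had 11.9 and 19.4. H2-AB1, H2-AA and H2-EB1, which were higher in ApoE3 at 21 dpi, follow each other in this row, and CD74 lies on another chromosome.

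The factors that bind class II promoters were all 7 listed at 7 dpi and 5 of 7 at 21 dpi. None was 1.3-fold apart at 7 dpi, where the median log2 ratio was -0.058. NFYA, the most abundant, had 262 FPKM in ApoE3 and 273 in ApoE4, while NFYC had the highest ratio, 0.25, and RFXAP the lowest, -0.19. At 21 dpi the median was -0.40, or 0.027 relative to all genes, from -0.76 for CREB1 to -0.17 for NFYC. RFX5 and RFXANK had a row at 7 dpi only. As a group these factors were near the centre of the table at both times.

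Interferon gamma is the main inducer of class II, and 7 of the 8 genes of its signalling reported here were listed at 7 dpi and 6 at 21 dpi. IFNG itself had no row in the table used. JAK1 was the most abundant of them, with 307 FPKM in ApoE3 against 294 in ApoE4 at 7 dpi. None of the 7 was 1.3-fold apart at 7 dpi, where their median was -0.14, with IRF8 lowest at -0.21 and JAK1 highest at 0.060. At 21 dpi all 6 were lower in ApoE3, with a median of -0.49, or -0.067 relative to all genes. IRF8 was lowest at -0.74, and IFNGR2 highest at -0.36.

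Type I interferon response genes went the other way from H2-AA, H2-AB1, H2-EB1 and CD74 at both times. All 8 were at least 1.3-fold higher in ApoE3 at 7 dpi, with a median log2 ratio of 1.19, from 0.76 for USP18 to 1.44 for OASL1. All 7 listed at 21 dpi were at least 1.3-fold higher in ApoE4, with a median of -0.84, or -0.41 relative to all genes. The most abundant, IFIT3, had 212 FPKM in ApoE3 against 403 in ApoE4 at 21 dpi. The lowest ratio was that of USP18, -1.24, and the highest that of RSAD2, -0.46.

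MHC class I genes, which present cytosolic peptides to CD8+ T cells, were not higher in ApoE3 at 21 dpi. All 9 were listed at 7 dpi and none was 1.3-fold apart, with a median of -0.071, from -0.17 for H2-D1 to 0.22 for TAP1. H2-K1 was the most abundant at 7 dpi, with 4719 FPKM in ApoE3 and 5107 in ApoE4. All 6 listed at 21 dpi were at least 1.3-fold higher in ApoE4, with a median of -0.55, or -0.13 relative to all genes. B2M, the shared light chain, had 307 FPKM in ApoE3 against 472 in ApoE4 at 21 dpi. The lowest ratio was that of PSMB8, -0.66, and the highest that of NLRC5, the class I counterpart of CIITA, at -0.44.

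Of 8 genes of endosomal antigen processing, CTSB, CTSH and SPPL2A were listed. CTSB, a lysosomal protease and the most abundant, had 1923 FPKM in ApoE3 against 2330 in ApoE4 at 7 dpi, and 599 and 930 at 21 dpi. SPPL2A, which cleaves the last membrane stub of the invariant chain, had 199 and 182 FPKM at 7 dpi, and 68.0 and 99.6 at 21 dpi. The median log2 ratio of the 3 genes was -0.28 at 7 dpi, and -0.64 at 21 dpi with CTSH lowest at -0.70, or -0.21 relative to all genes. All 3 were at least 1.3-fold lower at 21 than at 7 dpi in both genotypes, as the members were.

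The ubiquitin ligases that remove class II from the surface, MARCH1 and MARCH8, had medians of -0.011 and -0.51, or -0.084 relative to all genes at 21 dpi. MARCH1 had 83.8 FPKM in ApoE3 against 85.7 in ApoE4 at 7 dpi, and 38.8 and 56.7 at 21 dpi. Of 6 costimulatory and checkpoint ligands, 5 were listed at 7 dpi and none was 1.3-fold apart, with a median of -0.016, from -0.26 for CD40 to 0.24 for CD274. CD86, the most abundant, had 32.5 FPKM in both genotypes. Only CD274 was listed at 21 dpi, with 9.12 FPKM in ApoE3 and 12 in ApoE4.

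Markers of the cells that carry class II were set beside these results. All 12 monocyte and macrophage markers were listed at 7 dpi, with summed levels of 6483 FPKM in ApoE3 and 8511 in ApoE4. Their median log2 ratio was -0.16, and 4 of 12 were at least 1.3-fold higher in ApoE4, from ARG1 at -1.19 to CSF1R at 0.11. At 21 dpi 7 were listed, with sums of 342 and 661 FPKM, and all 7 were at least 1.3-fold higher in ApoE4. The median was -0.99, or -0.57 relative to all genes, from MS4A7 at -1.49 to CD14 at -0.63. LYZ2, the most abundant, had 212 FPKM in ApoE3 against 426 in ApoE4. At 21 dpi, the listed macrophage markers were higher in ApoE4, and H2-AA, H2-AB1, H2-EB1 and CD74 higher in ApoE3.

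Of the 9 microglia markers reported here 7 were listed at 7 dpi, with sums of 1248 FPKM in ApoE3 and 1427 in ApoE4, and a median of -0.056. TREM2 was the most abundant of them, at 460 and 561 FPKM, and ratios ran from -0.39 for FCRLS to 0.16 for SALL1. At 21 dpi 5 were listed, with sums of 425 and 789 FPKM, and all 5 were at least 1.3-fold higher in ApoE4. The median was -0.94, or -0.52 relative to all genes, and AIF1, the most abundant, had 166 and 320 FPKM. P2RY12 and CX3CR1 had no row in the table used. FCRLS had the lowest ratio at 21 dpi, -1.0, and SALL1 the highest, -0.44.

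The class II signal was also set against sums of marker genes listed at both times. The summed FPKM of H2-AA, H2-AB1, H2-EB1 and CD74 was 163 in ApoE3 and 215 in ApoE4 at 7 dpi, and 97.1 and 68.9 at 21 dpi. As a share of the sum of 7 macrophage markers this was 3.19% in ApoE3 and 3.20% in ApoE4 at 7 dpi, and 28.4% and 10.4% at 21 dpi. These shares rest on LYZ2, which made up most of the marker sum. Without LYZ2, left out after the values were seen, they were 27.9% and 33.3% at 7 dpi, and 74.8% and 29.2% at 21 dpi. Against 5 microglia markers the shares were 22.1% and 26.4% at 7 dpi, and 22.9% and 8.73% at 21 dpi. Against 6 MHC class I genes they were 18.6% and 23.1%, and then 17.2% and 8.10%. The sum of 4 dendritic cell markers was smaller, and class II stood at 253% and 282% of it at 7 dpi, and at 153% and 77.6% at 21 dpi. The course over time thus depended on the list and, for macrophage markers in ApoE4, on LYZ2, while at 21 dpi each share was higher in ApoE3. That order at 21 dpi was fixed by the sums, as the class II sum was higher in ApoE3 and the sum of every list was lower. The shares add no independent evidence to those values. The part of macrophage and microglia numbers in the class II values was not tested.

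Dendritic cell markers were listed for 6 of 10 genes at 7 dpi, with sums of 69.0 FPKM in ApoE3 and 81.9 in ApoE4 and a median of -0.16. ITGAX, the most abundant by the mean of both genotypes, had 20.3 and 33.7 FPKM and the lowest ratio, -0.70, and ZBTB46 the highest, 0.077. At 21 dpi 4 were listed, with sums of 63.5 and 88.7 FPKM and a median of -0.43, or -0.0044 relative to all genes. FLT3, then the most abundant, had 25.0 and 34.8 FPKM, and ratios ran from -0.68 for ITGAX to -0.088 for BATF3. The defining genes XCR1, CLEC9A and CCR7 had no row in the table used. The part of dendritic cells in the class II values was not tested.

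Lymphocyte markers were mostly without a row. Of 9 B cell genes only CD79B was listed, with 2.46 FPKM in ApoE3 against 3.28 in ApoE4 at 7 dpi, and 1.19 and 3.03 at 21 dpi. It was lower in ApoE3 at 21 dpi, unlike H2-AA, H2-AB1, H2-EB1 and CD74. Of 14 T cell genes 3 were listed at 7 dpi, with sums of 60.0 and 52.0 FPKM, and 4 at 21 dpi, with sums of 77.5 and 116. CD3D, CD3E, CD4 and CD8A had no row in the table used. LAG3 was the most abundant, with 59.7 and 100.1 FPKM and the lowest ratio, -0.74, at 21 dpi. It made up most of the T cell sums at both times, and which cells carried it was not tested. These sums are therefore no measure of T cell number. LCK had the highest ratio at both times, 1.11 and 0.41, and CD28 the lowest at 7 dpi, -0.14. The medians were 0.053 and -0.40.

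Schwann cell and sensory ganglion markers also differed between genotypes at 21 dpi. Whether their RNA came from within the cord or from tissue next to it was not tested. Of the 7 Schwann cell genes reported here 6 were listed, with sums of 136 FPKM in ApoE3 and 79.6 in ApoE4, and 5 were at least 1.3-fold higher in ApoE3. EGR2, a transcription factor of myelinating Schwann cells and the most abundant of them, had 73.0 and 46.1 FPKM, CLDN19 had the highest ratio, 4.04, and CDH19 the lowest, -0.072. The median was 1.47, or 1.89 relative to all genes. At 7 dpi 3 were listed, with sums of 67.8 and 89.8 FPKM and a median of -0.14. The medians of both times come from different genes, and of the 3 listed at both, EGR2 and NGFR changed sign and CDH19 did not. EGR2 was again the most abundant, with 33.1 and 51.6 FPKM and the lowest ratio, -0.62, and NGFR had the highest, -0.044.

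Of 9 sensory ganglion genes 8 were listed at 21 dpi, with sums of 786 FPKM in ApoE3 and 833 in ApoE4, and 7 were at least 1.3-fold higher in ApoE3. CALCA, the most abundant, had 702 and 830 FPKM and the lowest ratio, -0.24, and SCN10A had the highest, 4.20. In ApoE4, TRPV1 and MRGPRD were listed at 0. The median was 1.90, or 2.33 relative to all genes. At 7 dpi 3 were listed, with sums of 484 and 364 FPKM and a median of 0.48, from PRPH at 0.17 to CALCA at 0.48. Peripheral nerve and ganglia hold resident macrophages that carry class II, and the part of such tissue in the class II values was not tested.

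Skeletal muscle and liver genes moved the other way at 21 dpi. All 6 listed of 10 muscle genes were at least 1.3-fold higher in ApoE4, with sums of 32.6 FPKM in ApoE3 and 704 in ApoE4 and a median of -4.29. TNNT3 was the most abundant, MYL1 had the lowest ratio, -4.60, and MYH4, listed at 0 in ApoE3, had the highest, -2.14. All 7 listed of 10 liver genes were at least 1.3-fold higher in ApoE4 as well, with sums of 10.7 and 128 FPKM and a median of -2.74. APOA2 was the most abundant, at 5.38 and 59.2 FPKM, and ratios ran from -3.83 for AHSG to -1.68 for APOA1. At 7 dpi 6 muscle genes had sums of 66.4 and 44.3 FPKM and a median of 0.31, and no liver gene was listed. The part of these tissues in the class II values was not tested.

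Markers of the other cells of the cord were lower in ApoE3 at 21 dpi, like most genes. The medians at 7 and 21 dpi were 0.029 and -0.72 for 8 astrocyte genes, led by GFAP, and 0.26 and -0.55 for neuron genes, of which 8 and 7 were listed, led by MAP2 and then SNAP25. They were -0.048 and -0.54 for oligodendrocyte genes, of which 3 and 5 of 6 were listed, led by MBP. For erythrocyte genes, of which 5 and 4 of 5 were listed, they were 0.044 and -0.29. Relative to all genes at 21 dpi these medians were -0.29 for astrocytes, -0.13 for neurons, -0.12 for oligodendrocytes and 0.14 for erythrocytes. None of these lists was as far above the median of all genes as the class II members, at 0.83.

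Finally, genes with a pattern like that of the class II members were sought among 8511 genes that averaged at least 10 FPKM over the 4 groups. Likeness was the Euclidean distance between log2(FPKM + 1) profiles over 4 groups, each minus its own mean, to the median profile of H2-AA, H2-AB1, H2-EB1 and CD74. The 10 nearest genes were LRRC32, TMEM140, TGFBI, TSKU, ARHGAP19, PIEZO2, PLXNC1, STAT6, SERINC2 and C77080, at distances from 0.12 to 0.30, beside a median of 1.75 over all these genes. The 4 members themselves lay at 0.11 for H2-AB1, 0.17 for H2-AA and 0.24 for H2-EB1 and CD74. LRRC32, which encodes the TGF-beta docking protein GARP, had 14.1 FPKM in ApoE3 against 18.2 in ApoE4 at 7 dpi, and 6.99 and 4.94 at 21 dpi. TGFBI, a matrix protein induced by TGF-beta, had 30.9 and 37.2 FPKM at 7 dpi, and 14.8 and 10.4 at 21 dpi. Profiles over 4 groups leave room for many genes to look alike.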

How the data were processed

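RNA-seq of lesion segments was analysed for 4 groups with 1 value per gene each. The authors deposited FPKM plus 1, and 1 was subtracted. The submitters' processing notes name STAR 2.5.4b, Bowtie2 2.1.10, SAMtools 0.1.7 and Cuffdiff 1.3.0; the genome build is not given in the sources used here. The deposited tables also hold the authors' p-values, q-values, fold changes and lists of DEGs, which were not used. Symbols on more than 1 row, 2 at each time point, were left out. With 1 value per group no test was run, and depth per gene is unknown.

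The 22 gene lists, that of the members among them, were chosen with earlier results of these data known. Named genes were all members and, of most lists, the most abundant gene and those with the highest and lowest ratio. Genes listed at 0, further examples and the 10 genes nearest to the members' profile were also named. Of the astrocyte, neuron and oligodendrocyte lists only the most abundant gene was named, and of the erythrocyte list no gene. EGR2, CHIL3, CCL11, LUM, MFAP5 and genes without a row were singled out after values were seen. Some genes of the interferon gamma, microglia and Schwann cell lists are not reported here and were left out of the values of those lists. Genes neighbouring each other and promoters came from RefSeq GRCm38.p6.

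Alternatives were pseudocounts of 0.1 and 0.01, scaling by the median of all genes, total FPKM or upper quartile, a mean FPKM of at least 1, fold changes of 1.5 and 2, and the other reading of genotypes. Values without replicates were called moved when they shifted by 0.1 or more on the log2 scale. Python 3.11.15, numpy 2.4.6, pandas 2.3.3 and matplotlib 3.10.9 were used, and the procedure was tested on simulated data.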

Additional observations from a re-analysis of the deposited data

Results flagged for a closer look

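For 4 class II members the difference between genotypes went one way at 7 dpi and the opposite way at 21 dpi, with ApoE4 higher at first and ApoE3 higher later. The log2 ratio of ApoE3 to ApoE4 at 21 dpi minus that at 7 dpi was 1.23 for H2-EB1, 0.87 for H2-AA, 0.82 for H2-AB1 and 0.79 for CD74. For H2-DMB1 it was 0.027, with the same direction at both times before any scaling. These differences between time points were not tested, because each group has 1 value per gene.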

How the results depend on the processing

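No paired analysis was possible because each group has 1 value. The median log2 ratio of the members at 7 dpi was -0.40 or -0.41 under every pseudocount and scaling tried. The filter on mean FPKM removed no listed member, so its values repeat those as deposited and say nothing about robustness. At 21 dpi it was 0.41 as deposited, 0.83 relative to the median of all genes, 0.80 after division by total FPKM and 0.80 by the upper quartile. The ratio of 21 to 7 dpi, -0.74 in ApoE3 and -1.56 in ApoE4, became -0.59 and -1.77 by total FPKM, and -0.62 and -1.83 by the upper quartile. In ApoE4 it was -2.08 relative to the median of all genes and -1.68 without H2-DMB1, an alternative chosen after the values were seen. The numbers of members past 1.3-fold, 3 at 7 dpi and 4 at 21 dpi, were the same under both pseudocounts and all 3 scalings. A fold change of 1.5 left 0 and 1, and one of 2 left 0 and 0. H2-DMB1 at 21 dpi turned from -0.16 to 0.26 relative to the median, 0.18 by total FPKM and 0.19 by the upper quartile, as each scaling removes the shift of the whole table. With genotypes read by column number, which is not the order the study uses, the medians became 0.40 and -0.41, and 0 members at each time were past 1.3-fold in the original direction. The ratios were then 0.30 and -0.58 for H2-AA, 0.41 and -0.41 for H2-AB1, 0.49 and -0.74 for H2-EB1, 0.19 and 0.16 for H2-DMB1, and 0.40 and -0.39 for CD74 at 7 and 21 dpi, and those of 21 to 7 dpi were -1.56 in ApoE3 and -0.74 in ApoE4. Of 70 single-gene values under alternatives, 45 shifted by less than 0.1, and 13 changed sign, 10 of them by this reading. The 45 include the values under the filter, which could not shift. For single genes, scalings, the filter and this reading were chosen after the values were seen, as was this reading for counts and for changes over time.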
